A study of Homo sapiens with 4 samples.

Results

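The human mismatch control probes of a miRNA array were examined on 4 arrays of LNCaP, an established line of human prostate adenocarcinoma cells that responds to androgen. Members were the probes whose name begins with the human species tag, names a miR or let and carries the tag for 2 mutated bases. They number 455 of the 1406 probes on the array, and each has 1 partner probe, the match probe, of the same miRNA name without the mutation. For each array, 1 mean signal is deposited for each probe. It is a linear intensity, and a value of 0 was read as missing.

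Before treatment, all 4 cultures were kept without androgen for 24 hours, with 10% charcoal-stripped serum as the serum source. The groups were cells left untreated (0 nM) and cells given 0.1, 1 or 10 nM of R1881, a synthetic androgen, with 1 array per dose. The arrays were custom CombiMatrix arrays read in 1 colour (Cy3) from 10 µg of total RNA. The length of the treatment is not given in the sources used here. Dose and array cannot be told apart, since no dose has a second array, so differences between arrays are given without an error.

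A mismatch probe is the antisense copy of a miRNA with bases exchanged so that the intended miRNA pairs with it less stably. Under stringent washing a mismatched duplex of this length tends to dissociate while the perfect duplex stays. What remains on the mismatch probe is read as non-specific binding and background, and such probes commonly set the floor above which a match probe counts as detected. Duplexes rich in G and C pairs are more stable than those rich in A and U pairs, so sequence can alter the signal of either probe.

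The miRNAs that the results turn on are shown first, as mature sequences from RefSeq (GRCh38.p14), because the bases exchanged in the mismatch probes and the probe sequences themselves were not used here. Of the 455 miRNA names, 382 (84.0%) were matched to a mature sequence. Of these, 110 had the same name, 20 a newer name, and 252 an older name assigned to its usual guide or passenger arm. Capitals mark the seed, bases 2 to 8. The first set belongs to the probes with the brightest mismatch signals, in order of brightness.
miR-335: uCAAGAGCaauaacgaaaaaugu
miR-568: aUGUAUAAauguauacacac
miR-638: aGGGAUCGcgggcggguggcggccu
miR-608: aGGGGUGGuguugggacagcuccgu
miR-433: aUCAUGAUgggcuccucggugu
miR-210: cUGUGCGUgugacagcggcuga
miR-432: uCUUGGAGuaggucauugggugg
miR-489: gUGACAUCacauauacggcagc
The second set belongs to the brightest match probes, whose mismatch partners stayed at the floor.
miR-125b: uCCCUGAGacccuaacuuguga
miR-99a: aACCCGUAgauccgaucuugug
miR-100: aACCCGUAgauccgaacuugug
let-7a: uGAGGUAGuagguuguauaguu
let-7d: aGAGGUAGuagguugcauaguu
let-7c: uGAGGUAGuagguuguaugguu
let-7f: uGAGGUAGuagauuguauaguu
Within the second set miR-99a and miR-100 share a seed, as do the let-7 miRNAs. Within each of these groups the mature sequences differ at few bases. The third set belongs to mismatch probes with high ratios to the untreated array at 10 nM.
miR-197: uUCACCACcuucuccacccagc
miR-656: aAUAUUAUacagucaaccucu

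By RefSeq coordinates, mature miR-335 lies at chr7:130496126-130496148 on the plus strand, within the interval of the protein-coding gene MEST. MiR-568 lies at chr3:114316535-114316554 on the minus strand within ZBTB20, and miR-638 at chr19:10718419-10718443 on the plus strand within DNM2. MiR-608 lies at chr10:100975000-100975024 on the plus strand within SEMA4G. MiR-197 lies at chr1:109598940-109598961 within GNAI3, and miR-656 at chr14:101066766-101066786 in no protein-coding interval, both on the plus strand. The gene table holds gene intervals and not exons, so exon and intron were not told apart. The deposited files name no genome build.

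The mismatch probes formed a low, narrow floor. Their median signal was 368.5 untreated and 351.5, 293.5 and 279 at 0.1, 1 and 10 nM. Their quartiles lay between 336.5 and 399.75 untreated, and between 321 and 389.5, 265.875 and 327, and 252.75 and 317.375 in order of dose. The floor was thus lower on the arrays at 1 and 10 nM than on the other pair, by amounts that differed between probes, as given below. The highest mismatch signals were 597.5 untreated and 517.5, 615.5 and 858 at 0.1, 1 and 10 nM, so the upper end did not follow the median. By comparison, the highest human match signals were 16588, 8880, 11654 and 10294 in the same order.

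Other probes designed for miRNAs of other species, and undetected human match probes, stood a little above this floor. The 149 mismatch probes of mouse and viral miRNAs had medians above those of the human mismatch probes by 4.48% untreated and by 4.27%, 2.56% and 3.58% at 0.1, 1 and 10 nM. The 106 match probes of viral and worm miRNAs stood above by 4.0% untreated and by 11.1%, 3.92% and 11.0%. Human match probes that did not pass the detection threshold below stood above by 1.93% untreated and by 7.82%, 2.26% and 7.17%. In both sets of match probes, the gap to the mismatch floor was wider on the arrays at 0.1 and 10 nM than on those at 0 and 1 nM.

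Zeros were rare among the members and never recurred. The human mismatch probes had 4 zeros untreated and 6, 3 and 5 at 0.1, 1 and 10 nM, on 18 different probes, each at 0 on 1 array and with a signal on the others. No human match probe was listed at 0. The mismatch probe of miR-608 was at 0 untreated and at 508.5, 455.5 and 475 at 0.1, 1 and 10 nM. That of miR-605, named after its values were seen, was at 0 at 10 nM and at 500, 473.5 and 369 at 0, 0.1 and 1 nM. All mismatch signals above 0 were multiples of 0.5 and all human match signals multiples of 0.25, of which 52.0% were also multiples of 0.5. The number of spots behind each mean is not given in the sources used here.

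Beside the brightest match probes, most mismatch signals lay near this floor. MiR-125b, known in prostate and other tissues for targeting proapoptotic mRNAs, had mismatch signals of 336.5 untreated and 334, 273.5 and 276.5 at 0.1, 1 and 10 nM. Its match signals in that order were 16588, 8880, 11654 and 9779. The mismatch probe thus stood at 2.03%, 3.76%, 2.35% and 2.83% of its match and below the median mismatch probe on every array. The match signal differed widely between arrays, while the mismatch signal kept to the floor of its own array.

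Mismatch signals near the floor beside bright matches were also found in the miR-99 and let-7 families. MiR-99a, whose family is known to target mTOR, had mismatch signals of 325, 291, 266.5 and 265 in order of dose, and match signals of 10199, 5802, 9183 and 10294. Let-7a, of the family known to repress RAS and HMGA2 mRNAs, had mismatch signals of 343.5, 341, 279 and 279.5, and match signals of 5660, 5697, 5680 and 6256. MiR-100 had mismatch signals of 314.5, 309.5, 291.5 and 255.5, and match signals of 3410, 1106, 2787 and 3926. The match signal of miR-100 was lowest by far at 0.1 nM, and its mismatch signal there was close to the untreated one.

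Over the 12 brightest match probes the mismatch signal did not grow with the match signal. Their mismatch probes lay between 0.833 and 1.09 times the array's median mismatch signal untreated. At 0.1, 1 and 10 nM the ranges were 0.828 to 1.17, 0.908 to 1.39 and 0.916 to 1.56. The upper ends at 1 and 10 nM belong to miR-574 and miR-191. At 434.5, the mismatch probe of miR-191 passed the detection threshold given below on the array at 10 nM. It was the only 1 of the 12 to pass on any array. Of the 12, the mismatch probes of 7 were below the array's median untreated, and 8, 4 and 5 were below it at 0.1, 1 and 10 nM. The median mismatch signal as a share of the match signal was 10.6% untreated and 13.9%, 10.4% and 9.04% at 0.1, 1 and 10 nM.

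Grouping all pairs by match brightness gave the same picture. At 10 nM, 7 pairs with a match at 10 or more times the mismatch median had a median mismatch level of 0.991 times that median, and untreated 3 such pairs had 0.913. For matches at 4 to 10 times the levels were 1.09 over 15 pairs at 10 nM and 0.991 over 10 pairs untreated. At 2 to 4 times they were 0.992 over 26 pairs at 10 nM and 1.01 over 22 untreated, and at 1.5 to 2 times 1.18 over 26 and 1.05 over 21. The dimmest match probes, below the mismatch median, had mismatch levels of 0.912 at 10 nM and 0.936 untreated. Among pairs whose match did not pass the threshold, mismatch and match signals went together (Pearson r = 0.41 at 10 nM over 376 pairs and 0.58 untreated over 386). Among pairs whose match passed it, r was negative on every array. It was -0.30 untreated over 65 pairs, -0.43 at 0.1 nM over 48, -0.18 at 1 nM over 65 and -0.23 at 10 nM over 74. These are correlations across probes of 1 array, which share label, scan and base composition within a pair.

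A probe counted as detected above a threshold set from the human mismatch probes, 3 scaled median absolute deviations over their median. This gave thresholds of 509 untreated and 505, 428 and 421 at 0.1, 1 and 10 nM. Of the 455 human match probes, 14.3% passed untreated and 10.5%, 14.3% and 16.3% at 0.1, 1 and 10 nM. Of the 106 viral and worm match probes, 1.89%, 0.943%, 1.89% and 8.49% passed in the same order. A match called detected is thus one above this threshold, which some probes for viral and worm miRNAs also passed. Because the threshold is set from the members, the count of members above it describes the upper tail of their own distribution. Over pairs with a detected match, the median mismatch signal was 43.1% of the match untreated (65 pairs) and 46.5% (48 pairs), 35.8% (65 pairs) and 42.8% (74 pairs) at 0.1, 1 and 10 nM. With the median mismatch signal subtracted from both probes, these shares were 1.08%, 3.68%, 1.59% and 2.46%. The signal left on mismatch probes of detected miRNAs was thus close to the median of the array's mismatch probes.

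The mismatch was at most 50% of the match in 37 of 451 pairs untreated, and in 25 of 449, 40 of 452 and 45 of 450 at 0.1, 1 and 10 nM. The same share over pairs of all species was 6.83% untreated and 4.69%, 7.49% and 8.38%. The human shares were 8.20%, 5.57%, 8.85% and 10.0%. The mismatch was at or above the match in 161 pairs untreated, or 35.7% (exact 95% binomial interval 31.3 to 40.3, counting error only). At 0.1, 1 and 10 nM it was so in 108, 168 and 117 pairs, or 24.1% (20.2 to 28.3), 37.2% (32.7 to 41.8) and 26.0% (22.0 to 30.3). Over pairs of all species the shares were 38.7%, 24.5%, 38.6% and 28.6% in order of dose. The arrays at 0 and 1 nM were alike in this share, and so were those at 0.1 and 10 nM, which is not the order of the doses. The mismatch probe was at or above its match on all 4 arrays in 40 of the 437 pairs with a mismatch signal on every array, and below it on all 4 in 196.

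Of 42 miRNAs whose match was detected on all 4 arrays, 33 had a mismatch signal averaging at most 50% of the match (geometric mean over arrays), and 14 at most 25%. The range was 2.67% for miR-125b to 86.6% for miR-210, with a median of 32.2%. The lowest shares after miR-125b were 3.31% for miR-99a, 5.31% for let-7a, 8.56% for let-7d and 10.1% for let-7f. The highest were those of miR-210, miR-638 at 84.6%, miR-422b at 83.9%, miR-594 at 74.1% and miR-221 at 70.7%. In these 5 the mismatch signal came closest to the match signal. The share has the floor left in, so it is also high where the match signal is low. The effect of the exchanged bases themselves was not tested.

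Members of this poorly separated group were not alike in level. MiR-210, known as a target of hypoxia-inducible factor, had mismatch signals of 458, 443, 398.5 and 419 in order of dose, and match signals of 565.25, 529, 447 and 450. MiR-638 had mismatch signals of 541.5, 475.5, 497 and 561, and match signals of 860.5, 578.75, 483.75 and 580.5. Its mismatch probe thus exceeded its match at 1 nM. MiR-221, a known repressor of the mRNA for p27, had mismatch signals of 461.5, 480, 348.5 and 316.5, and match signals of 704.5, 566.5, 504.75 and 484.25. MiR-222, which shares its seed and gene cluster, had mismatch signals of 512.5, 517.5, 344 and 326.5, and match signals of 603.25, 589.25, 428.75 and 392.75. For both, the mismatch signal was higher on the arrays at 0 and 0.1 nM than on those at 1 and 10 nM.

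Mismatch probes above the threshold numbered 5 on the untreated array and 2, 5 and 12 on the arrays at 0.1, 1 and 10 nM. Over all miRNA probes, 7.08% were above it untreated and 5.07%, 6.86% and 9.2% at 0.1, 1 and 10 nM, against 1.11%, 0.445%, 1.11% and 2.67% of the members. In all 14 members passed on at least 1 array, 7 of them on 1 array alone, and none on all 4. Of the 14, 5 belonged to miRNAs whose match passed on no array, and 3 to miRNAs whose match passed on all 4. Over all 455 members, the match passed on no array for 373, on at least 1 for 82 and on all 4 for 42.

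By the mean log2 signal over the arrays, the brightest mismatch probe was that of miR-335, a miRNA encoded within MEST. That of miR-568 was brighter at 1 and 10 nM. At 0.1 nM several were brighter, among them those of miR-222, miR-608, miR-663, miR-638 and miR-518f*. The mismatch probe of miR-335 had signals of 597.5 untreated and 458, 597 and 707.5 at 0.1, 1 and 10 nM. Its match had 300.5, 305, 263.5 and 257. The mismatch stood at 199%, 150%, 227% and 275% of the match, and the match lay at or below the floor on every array. It was above the threshold on all arrays but that at 0.1 nM. The miR-335 probe with the exchanged bases was therefore brighter than the intended one on every array.

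The second was that of miR-568, with signals of 386.5 untreated and 371.5, 615.5 and 858 at 0.1, 1 and 10 nM. Its match had 382.75, 355, 333.25 and 517.25. The mismatch was at 101% and 105% of the match on the arrays at 0 and 0.1 nM, and at 185% and 166% at 1 and 10 nM. The mature sequence of miR-568 can pair with itself over a stem of 6 bases, by Watson-Crick pairs with at least 3 unpaired bases between the arms. Of the 382 sequences, 1 other, miR-520d*, had a stem as long, and 289 had one of 3 or more. Over the 382, stem length had Pearson r = -0.04 with the mean log2 mismatch level. MiR-335, with the brightest mismatch probe, had a longest stem of 2. A part of the stem in the signal was not tested. The sequence of the mismatch probe itself was not used, so its own pairing is not known.

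The next by this mean were those of miR-638, miR-608, miR-663 and miR-594. Missing values were left out of the mean: the untreated array for miR-608 and that at 10 nM for miR-661, named below. MiR-638 is 80% GC and 56% G, and miR-608 is 64% GC and 48% G, while miR-663 and miR-594 had no matched sequence. The mismatch probe of miR-663 had signals of 510, 484.5, 420 and 437.5 in order of dose, and its match had 615, 525.25, 374.5 and 390.25. At 1 and 10 nM it was above its match. That of miR-594 had 450, 448, 443 and 487, and its match 631, 522, 581.25 and 753.25. The remaining probes among the 12 brightest, in order, were those of miR-433, miR-661, miR-210, miR-639, miR-432 and miR-489. All but miR-335, miR-433, miR-210, miR-432 and miR-489 of these 12 lie in the range of names miR-548 to miR-671, which supplied 7 of the 12 and 8 of the 14 above the threshold. They make up 120 of the 455 members, or 26.4%, and their median mismatch level was 1.00, 0.994, 1.00 and 0.982 times the array's median in order of dose. The high numbers thus stood out in the upper tail and not in the median.

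GC content and mismatch level went together to a small degree. Over the 382 matched probes the Pearson correlation of percent GC with the mean log2 mismatch level was 0.29 and that of percent G was 0.24. Over 308 miRNAs whose match never passed the threshold, percent GC had r = 0.25 with the mismatch level and 0.25 with the match level. Percent G had 0.18 and 0.30 there, so these correlations were not particular to the mismatch probes. At 10 nM the mismatch level was 0.942 times the array's median for 93 miRNAs under 40% GC, 0.993 for 142 at 40 to 50%, 1.06 for 108 at 50 to 60% and 1.14 for 39 at 60% or more. Untreated it was 0.963, 0.993, 1.04 and 1.09 for the same classes. MiR-335 at 30.4% GC and miR-568 at 25% GC do not follow this order, although they are the brightest. The correlation of base composition with the mismatch level differed between arrays. For percent C, r was 0.20 untreated and 0.24 at 0.1 nM, but -0.01 and -0.03 at 1 and 10 nM. Percent G had r = 0.13 and 0.17 on the first pair of arrays and 0.26 and 0.28 on the other pair.

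The dimmest mismatch probe with a signal on all 4 arrays was that of miR-558, at 230, 225, 194 and 163 in order of dose, beside match signals of 240.75, 250.5, 186.5 and 183. Next were those of miR-185, miR-585 and miR-371. The 9 of the 12 dimmest with a sequence had a median of 40.9% GC, against 53.4% for 8 of the 12 brightest and 45.5% for all 382. None of the 12 dimmest had a match above the threshold on any array, which was also so for 373 of the 455 members.

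The families listed here had mismatch signals near the floor and no member above the threshold. The 9 probes of let-7 and miR-98 ran from 305 to 361.5 untreated, with medians of 0.920, 0.964, 0.974 and 1.00 times the array's median in order of dose. Their match probes reached 6256 at 10 nM, where 8 of the 9 passed. The miR-17, miR-20, miR-106 and miR-93 probes, of a family known to promote proliferation, had medians of 1.05, 1.07, 1.12 and 1.13 over 6 probes. The miR-200 family with miR-141, known to repress the ZEB factors in epithelial cells, had medians of 1.05, 1.14, 1.05 and 1.09 over 5 probes, 4 of them with a signal at 0.1 nM. The 3 miR-29 probes, known to target collagen mRNAs, had low medians, at 0.871, 0.794, 0.886 and 0.771. Medians over the miR-125, miR-99 and miR-100, miR-15, miR-16 and miR-195, miR-30, and miR-23, miR-27 and miR-24 probes lay between 0.857 and 1.10 on the 4 arrays. Over 60 star, -3p and -5p probes the medians were 0.999, 0.991, 0.951 and 0.941, and 1 passed the threshold untreated, that of miR-518f*.

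For the comparison with untreated cells, each array was divided by its own median mismatch signal. On this scale few mismatch probes differed between arrays. At 10 nM 2 of 446 were higher than untreated by 2-fold or more and 0 were lower, where 0.726% and 0% of all miRNA probes were. At 1 nM 0 of 448 were higher and 0 lower, where 0.0724% and 0% of all were, and at 0.1 nM 0 of 445 in either direction, where 0% were higher and 0.363% lower. At 1.5-fold or more, 6 were higher at 10 nM, 1 at 1 nM and 0 at 0.1 nM, and none was lower at any dose. The shares of all miRNA probes higher by 1.5-fold were 2.4%, 0.579% and 0%, and those lower 0%, 0% and 1.02%. In the median the members stood at log2 ratios of 0.01, 0.02 and 0.03 at 0.1, 1 and 10 nM, which the division by their own median largely fixes. Without scaling these medians were -0.06, -0.31 and -0.37. The 3 comparisons share the untreated array.

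The spread of the ratios widened with dose. The SD of the log2 ratio over members was 0.08, 0.16 and 0.22 at 0.1, 1 and 10 nM, and that of the human match probes was 0.23, 0.16 and 0.22. All members lay within 1.25-fold of untreated at 0.1 nM, 96.0% did at 1 nM and 88.8% at 10 nM, against 92.3%, 95.6% and 87.7% of the match probes. The array at 0.1 nM thus had the least altered mismatch probes, while 4 of its match probes were lower by 2-fold or more.

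The 2 members higher by 2-fold at 10 nM were those of miR-568 and miR-197. That of miR-568 had log2 ratios of 0.01, 1.00 and 1.55 at 0.1, 1 and 10 nM, and its match had -0.04, 0.13 and 0.84. The value at 1 nM is just short of 2-fold. That of miR-197 had signals of 321, 386 and 499 at 0.1, 1 and 10 nM, against 327.5 untreated, and log2 ratios of 0.04, 0.57 and 1.01. Its match had signals of 372.5, 403.5 and 458.5, against 391 untreated, and a log2 ratio of 0.63 at 10 nM. For both miRNAs the ratio of the mismatch probe exceeded that of its match.

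Next at 10 nM, among members above the threshold on either array, were those of miR-656 and miR-335. That of miR-656 had signals of 422 at 10 nM and 356 untreated, a log2 ratio of 0.65, while its match had 246.5 and 378.5, a log2 ratio of -0.22. Match and mismatch thus stood on opposite sides of the untreated array. That of miR-335 had log2 ratios of -0.32, 0.33 and 0.65 in order of dose, and its match 0.09, 0.14 and 0.18. Without scaling the miR-335 mismatch ratio at 1 nM was 0.00. The lowest ratios at 10 nM in that group were -0.27 for miR-518f*, -0.25 for miR-222, 0.18 for miR-663 and 0.40 for miR-489. Of the 13 probes in it, 11 were higher and 2 lower; the passing of a threshold at 10 nM selects for higher values there.

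Among all members, those with the lowest ratios at 10 nM were miR-485-3p at -0.55, miR-496 at -0.47, miR-483 at -0.46, miR-494 at -0.45 and miR-27a at -0.44. None of these was above the threshold on either array, and they were named after their values were seen. The mismatch probe of miR-494 had 185 at 10 nM and 334.5 untreated, while its match had 1079 and 487.75, a log2 ratio of 1.55. At 1 nM the related miR-27a and miR-27b had the lowest mismatch ratios of all members, at -0.41 and -0.37. Their match ratios there were -0.10 and -0.09. Of the 5 mismatch probes of miR-23, miR-27 and miR-24, 4 were lower at each dose. Of the 9 let-7 and miR-98 probes, 7, 9 and 8 were higher at 0.1, 1 and 10 nM, with medians of 0.07, 0.12 and 0.18. Of the 3 miR-29 probes, 3, 2 and 3 were lower, with medians of -0.13, -0.10 and -0.15. Without scaling, the let-7 and miR-98 medians were 0.00, -0.21 and -0.23, so their direction flips there, and with division by the match median it was -0.01 at 0.1 nM. With the net signal all 3 family medians were 0, and under the other scalings run the directions were as given. These families share sequence, so their probes do not count as separate observations.

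Changes of the match probe were hardly mirrored in its mismatch probe. Among miRNAs whose match passed the threshold on at least 1 array, the log2 ratios of mismatch and match had Pearson r = 0.18 over 79 pairs at 0.1 nM, 0.16 over 80 at 1 nM and 0.21 over 80 at 10 nM. Among the others r was 0.05, 0.02 and 0.16 over 366, 368 and 366 pairs. As an example, the match of miR-29b had 499 at 0.1 nM and 1318 untreated, a log2 ratio of -1.33, while its mismatch had 313 and 373, a log2 ratio of -0.18. In such a bulk sample, a lower signal of a miRNA cannot be assigned to fewer cells or to less RNA per cell.

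By their mismatch signals the arrays formed pairs. Over the 437 members with a signal on every array, Pearson r of log2 signals was 0.91 between the untreated array and 0.1 nM, and 0.90 between 1 and 10 nM. Between these pairs it was 0.74 for 0 with 1 nM, 0.75 for 0.1 with 1 nM, 0.58 for 0 with 10 nM and 0.59 for 0.1 with 10 nM. The 373 match probes that never passed the threshold did not pair in this way: r was 0.79 for 0 with 0.1 nM, 0.83 for 0 with 1 nM and 0.91 for 1 with 10 nM. The points are probes that share an array, and dose, labelling and hybridisation go together in these single arrays. Their part in the pairing was not tested.

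With arrays divided by their median mismatch signal, no member passed a trend over the doses. The call depends on the scaling, since limma called 7 members higher and 0 lower with normexp correction, and 2 higher and 189 lower without scaling. With limma, a slope over 0, 0.1, 1 and 10 nM taken as equal steps was fitted to 1367 miRNA probes, 437 of them members, and with Benjamini-Hochberg adjustment over all of them limma called 0 members in either direction (0% of all). The lowest adjusted p among the members was 0.112 in limma. At an unadjusted limma p under 0.05 there were 115 members, or 26.3%, of which 72 were higher with dose and 43 lower, where 20.3% of all miRNA probes were. The slopes were 0.56 ± 0.08 log2 per step (SE) for miR-568, 0.36 ± 0.05 for miR-197, 0.24 ± 0.04 for miR-656 and 0.18 ± 0.03 for miR-594, with limma adjusted p-values of 0.112, 0.112, 0.116 and 0.116. With 2 residual degrees of freedom these errors measure scatter around a line and not between cultures. Of the 437, 73 (16.7%) had scaled signals higher at every step, where 12.5% of all miRNA probes did, and 48 (11.0%) lower at every step, where 5.19% of all did.

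The mismatch floor also entered the authors' own table. Their value table lists background-subtracted intensities, and each filled cell equals the array's mean signal minus 371.5 untreated and minus 355, 295.75 and 280.25 at 0.1, 1 and 10 nM. These constants equal the medians of the mismatch probes of all species with zeros kept. No mismatch probe is listed in that table. Match probes of epithelial miRNAs passed the threshold on at least 1 array for 4 of 5 listed, and those of blood, muscle, liver and neuron miRNAs for none of theirs. Of 5 stromal and endothelial markers 1 passed, and no mismatch probe of any of these markers did.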

How the data were processed

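Each array file gives 1 mean signal per probe, an intensity that the authors deposited on a linear scale, per the file headers. No background step, scanner or image software is given in the sources used here. Zeros were treated as missing, match and mismatch probes were joined by miRNA name, and each array was divided by its median human mismatch signal before log2 ratios were taken. Probe names and lists, including the members, were chosen with earlier results of these data known. With 1 array per dose no ratio has a test. The trend was fitted with limma 3.58.1 in R 4.3.3 (lmFit and eBayes, two-sided) on probes with a signal on all 4 arrays. On simulated data for 1367 probes with 200 changed, it recovered 0% of slopes of 0.1 log2 per step, 90.5% of 0.3 and 96.5% of 0.5. The 200 simulated slopes were equal and all upward in each run, with normal scatter, so these shares do not carry over to the arrays. There the slope of miR-568, steeper than any simulated one, was not called. Other steps used Python 3.11.15 with pandas 2.3.3 and scipy 1.17.1. Named probes were the 12 brightest mismatch and match probes, at each dose the ratios ranked in the top or bottom 4 of members above the threshold on either array, the 5 highest and 5 lowest shares of match signal among miRNAs detected on all arrays, and up to 3 per list; others were named after their values were seen. Alternatives were other scalings, normexp correction with an offset of 50, other thresholds and fold limits, and zeros kept.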

Additional observations from a re-analysis of the deposited data

Results flagged for a closer look

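Single mismatch probes of mouse and viral miRNAs enter no dose comparison above. Of these 149, 4 passed the detection threshold on a treated array and not on the untreated one. Another 3, of mouse miR-129-5p, miR-297 and miR-31, passed it untreated, with signals of 532.5, 537 and 511. That of mouse miR-297 also passed at 0.1, 1 and 10 nM, with 520, 491 and 487, while no human member passed on every array. Of those with a signal, 2.01% passed untreated and 0.676%, 1.34% and 3.40% at 0.1, 1 and 10 nM. That of mouse miR-134 had signals of 464 at 1 nM and 503 at 10 nM, against 449.5 untreated, with log2 ratios of 0.37 and 0.56 after division by the array's median mismatch signal. That of mouse miR-293 had 497 at 10 nM against 424.5 untreated, a log2 ratio of 0.63. That of the Epstein-Barr virus miR-BART12 had 440.5 at 10 nM against 411.5 untreated, a log2 ratio of 0.50. That of mouse miR-297b had 424 at 10 nM against 456.5 untreated, so its signal was lower in treated cells, while its log2 ratio after scaling was 0.29. No source of these signals was tested.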

How the results depend on the processing

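Each count of bright members depends on its threshold. Counts at 0, 0.1, 1 and 10 nM were 0, 0, 2 and 3 at 5 scaled deviations, 17, 16, 25 and 24 at 2, and 2, 0, 9 and 7 with the threshold from viral and worm match probes. The untreated count was 2 with mismatch probes of all species and 3 with zeros kept, which gave 1 at 0.1 nM. Without the probes of miR-568 and miR-335, a choice made after seeing the data, the count at 1 nM was 3. The share of match signal over detected pairs was 1.08%, 3.68%, 1.59% and 2.46% as net signal, and 17.2%, 21.5%, 16.5% and 21.5% with normexp. It was 59.7%, 69.8%, 52.7% and 56.2% with detection at 2 deviations, and 37.5% at 0.1 nM and 27.8% at 10 nM with 5. Counts at 2-fold at 10 nM were 1 higher without scaling, with division by the match median and with quantile normalisation, of which miR-568 stood at 1.15, 1.47 and 1.16 and miR-197 at 0.61, 0.92 and 0.78. They were 13 higher and 3 lower with normexp and 16 and 6 as net signal. At 1 nM normexp gave 5 and 1, and net signal 5 and 3; at 0.1 nM net signal gave 1 and 1. A 1.5-fold limit gave 6 higher at 10 nM and 1 at 1 nM. The limma trend called 2 members higher and 189 lower without scaling, where the median log2 ratio of all miRNA probes was -0.31 at 1 nM and -0.32 at 10 nM, and 7 higher and 0 lower with normexp, where that median was 0.14 at 0.1 nM and 0.15 at 10 nM. In all, 48 alternative values moved and 62 did not, where a count within 1.5 times the reported one, a share or median within its 95% interval, or a correlation within 0.1 was taken as not moved. The cause was not tested. No paired analysis was possible because each dose has 1 array. Depth is unknown for arrays, and the single array per dose limits precision.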
